A study of Mus musculus with 24 samples.

Results

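The genes described here are 32 genes of fatty acid oxidation, ketone body metabolism and PPAR alpha targets, taken by symbol from a list out of the 33272 genes of the deposited table. They cover the carnitine shuttle, the mitochondrial beta-oxidation spiral, the auxiliary enzymes for unsaturated chains, electron transfer, peroxisomal oxidation, acyl-CoA thioesterases and a group of lipid binding and droplet genes with Ppara itself. Of ketone body metabolism the list holds Bdh1 alone. The study sequenced liver and kidney RNA of C57BL/6 mice given cisplatin, a platinum drug toxic to both organs, with or without CBLB502, which activates the flagellin receptor TLR5, and asked about protection by CBLB502. The control mice were untreated. The CBLB502 mice received 0.2 mg/kg CBLB502, the cisplatin mice 20 mg/kg cisplatin into the peritoneum, and the combination mice 0.2 mg/kg CBLB502 and, 30 min later, 20 mg/kg cisplatin; treated tissues were taken at 72 h. Each of the 8 groups has 3 libraries, and the labels give neither age nor sex and do not say whether libraries of a group came from separate mice, and p-values therefore cover only spread among libraries, which may be technical.

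Long-chain fatty acids enter mitochondria as carnitine esters, and each turn of the beta-oxidation spiral removes acetyl-CoA while passing electrons to the respiratory chain. The liver turns much of this acetyl-CoA into ketone bodies during fasting, and the proximal tubule of the kidney depends on fatty acids as fuel. PPAR alpha is a nuclear receptor for fatty acids that binds DNA with RXR at a pair of AGGTCA-like hexamers 1 base apart (called DR1), and many of the genes below are known targets of it.

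Promoter windows of 250 bases before to 50 after the start were at hand for 28 of the 32 genes (RefSeq, GRCm38.p6). AGGTCANAGGTCA, searched on both strands, was in none of the 30 windows of these genes and in 0.0396% of all 32851 windows. The looser AGGNCANAGGNCA was in 0.381% of all windows and, among these genes, in the Fabp1 window alone. The single hexamer AGGTCA, which overlaps both longer motifs, was in 16.3% of all windows and in those of 7 of the genes: Acadm, Acadvl, Acot3, Acot4, Cpt1a, Fabp1 and Plin2. Fabp1 and Plin2, chosen because their levels differed widely between groups, are shown up to the start of the annotated gene, each on its own strand, together with the interval between the divergent starts of Hadha and Hadhb, a pair of subunits encoded head to head. Capitals mark the AGGNCANAGGNCA match in Fabp1 (on the opposite strand, 67 bases before the RefSeq start, which lies inside the gene as the deposited table places it) and the AGGTCA match in Plin2 (also opposite); the Hadha to Hadhb interval holds neither motif. A match is a string of letters and not a measured binding site.
Fabp1, chr6:71199629-71199826, plus strand: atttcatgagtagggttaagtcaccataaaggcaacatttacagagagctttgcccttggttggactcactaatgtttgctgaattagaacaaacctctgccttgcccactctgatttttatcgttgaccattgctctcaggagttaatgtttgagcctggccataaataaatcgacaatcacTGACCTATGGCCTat
Plin2, chr4:86670061-86670309, minus strand: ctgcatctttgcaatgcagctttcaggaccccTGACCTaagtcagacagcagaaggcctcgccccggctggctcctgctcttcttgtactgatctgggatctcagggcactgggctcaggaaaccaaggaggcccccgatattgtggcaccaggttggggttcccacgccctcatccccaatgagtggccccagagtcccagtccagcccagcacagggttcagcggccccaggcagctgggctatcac
Hadha to Hadhb, chr5:30155163-30155247, plus strand: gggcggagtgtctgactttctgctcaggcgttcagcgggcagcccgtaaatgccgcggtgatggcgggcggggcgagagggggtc

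Levels are CPM, that is counts per 1 M counts, on library sizes scaled by the trimmed mean of M-values. Liver and kidney were scaled apart, so CPM printed for the 2 tissues are not on 1 scale. Tests between tissues used a common scale of all 24 libraries. On that scale control Eci2 averaged 58.61 CPM in liver and 34.64 in kidney, against 40.9 and 51.03 on the scales of each tissue. Values are listed in order of library number, 1 to 3 in liver and in control kidney and 4 to 6 in treated kidney, and the order of libraries has no meaning between groups. A gene is called where the adjusted p of edgeR's quasi-likelihood test is under 0.05, and log2 fold changes carry their SE. Depth, in M (mega) counts, was 40.58 to 77.54 M counts per library in liver and 52.85 to 77.1 M in kidney. Mitochondrial genes took 69.3% to 72.24% of counts in control liver and 60.69% to 68.96% in control kidney, against 2.567% to 7.105% and 6.315% to 14.22% in treated libraries. Nuclear copies of mitochondrial genes took a further 19.79% to 20.93% in control liver and 20.13% to 21.89% in control kidney. In treated libraries they took 0.8708% to 2.107% in liver and 2.342% to 4.43% in kidney. All other genes thus rest on 2.819 to 4.649 M counts in control liver and 48.6 to 74.5 M in treated liver. In kidney they rest on 5.054 to 10.14 M and 44 to 68.83 M. In every comparison with control the treatment and this difference in library make-up cannot be told apart. Words such as raised and lowered give only the direction of such a difference. Tissue labels were borne out by markers: Alb was at 7012 to 56960 CPM in liver, and Umod was at 4.20 CPM or less in liver and at 196.5 CPM or more in kidney. In bulk RNA, fewer cells of a type and less RNA per cell cannot be told apart.

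Library 3 of liver cisplatin stood apart. Its 32 genes summed to 5008 CPM, against 2008 and 2277 CPM in libraries 1 and 2, and 31 of the 32 genes were higher in it than in both others; Plin2 was the exception. Its share of mitochondrial counts was 5.70%, against 2.57% and 2.94%. In kidney cisplatin, library 6 was above 4 and 5 for 16 of the 32 genes and below both for 9. These counts do not set it apart, as library 5 was above both others for 10 and below both for 15. Library 6 differed by the size of the change in single genes. Plin2 and Ppara were lower in library 6 and Acot3, Acot4, Acaa1b and Crat higher. Other groups also held libraries that differed in most of the 32 genes. Liver combination library 2 was below both others for all 32, with a sum of 2844 CPM against 3555 and 3887. Kidney CBLB502 library 6 was above both others for 28 (4802 CPM against 3521 and 3873), and kidney combination library 5 below both for 25. Counts of called genes among the 32 that rest on liver cisplatin library 3 or kidney cisplatin library 6 are given with and without them. Both libraries were picked out by the levels of these same 32 genes. Results without them therefore show how far a count depends on that library and are no independent support. Single genes are given so only in part, and the further pathway genes with all libraries alone.

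**Figure D1:**
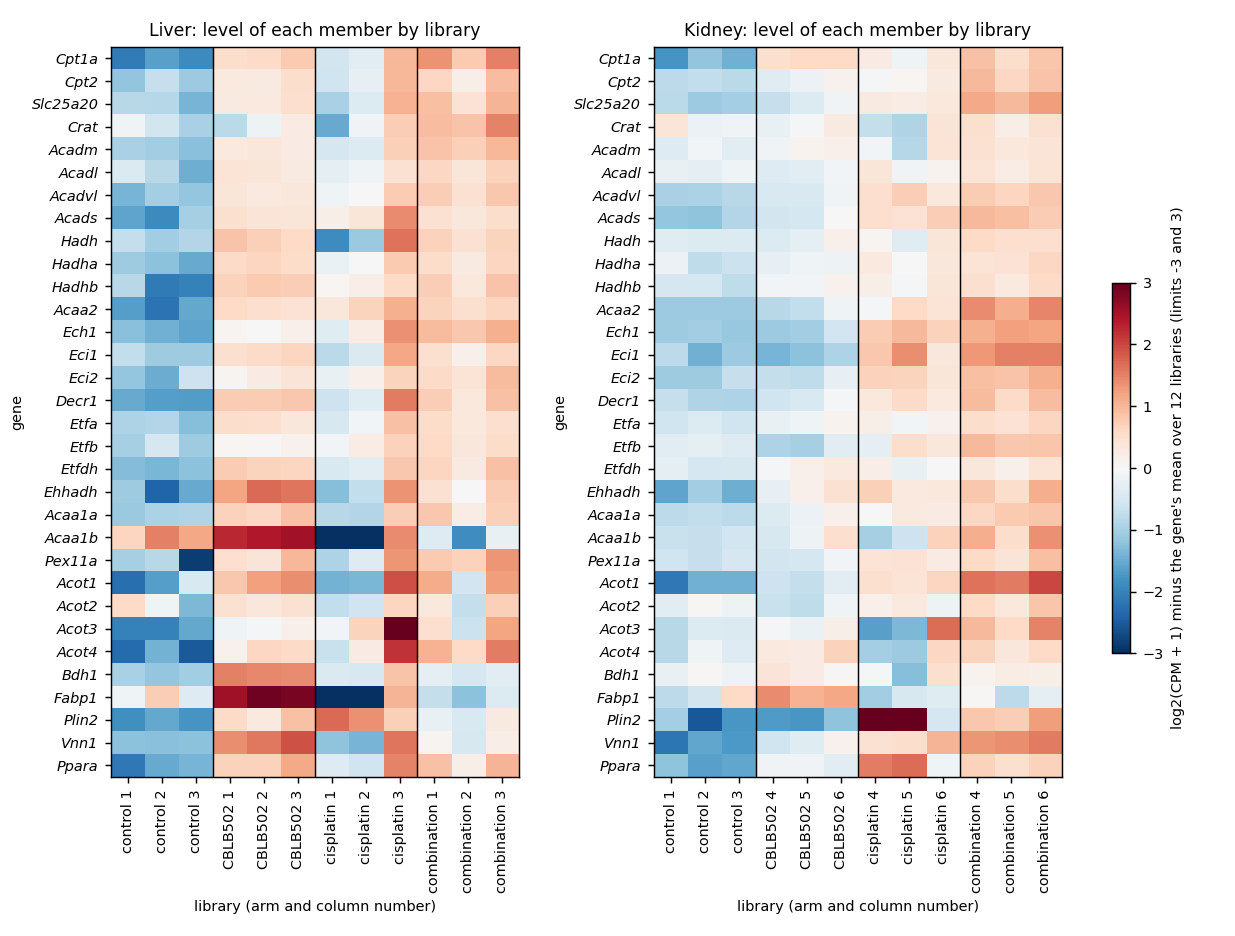
Level of each of the 32 genes in the 12 liver libraries (left) and 12 kidney libraries (right), as log2(CPM + 1) minus the gene's mean over the 12 libraries, with colours limited to -3 and 3. Liver cisplatin library 3 is redder than libraries 1 and 2 for 31 of the 32 genes, and kidney cisplatin libraries 4 and 5 are dark red for Plin2 while library 6 is pale blue.

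Per length, the most abundant of these transcripts in liver was that of Fabp1, which carries fatty acids through the cytosol. Its deposited FPKM with CBLB502 averaged 6119, followed by the thiolases Acaa2 at 445.1 and Acaa1b at 375.4 and by the electron carrier subunit Etfb at 208.3. Kidney had a different order. With CBLB502, FPKM computed from counts put Etfb first at 265.6, then the peroxisomal enzyme Ehhadh at 232.3 and the medium-chain dehydrogenase Acadm at 180.5, while Ppara was lowest at 4.01. Fabp1 in kidney averaged 15.2 FPKM with CBLB502 and 2.88 with the combination. Etfb shares 44.8% of its 50-base words with other genes, mainly Gm45233 on the same strand, so its level is uncertain.

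In untreated mice, kidney exceeded liver for 13 of the 32 genes and fell below it for 3, where 33.9% of all tested genes were called, 17.2% and 16.7% in these directions. Fabp1 was lower in kidney (log2 fold change -8.69 ± 1.19, adjusted p = 1.22e-05), as were Acaa2 (-1.12 ± 0.23, adjusted p = 0.000991) and Eci2 (-0.76 ± 0.25, adjusted p = 0.0231). Acadm was higher (1.84 ± 0.3, adjusted p = 9.29e-05), and so was Ehhadh (2.33 ± 0.5, adjusted p = 0.00129). All 4 acyl-CoA thioesterases, which release free fatty acids from coenzyme A, were higher in kidney, with log2 fold changes from 2.07 for Acot4 to 5.04 for Acot3. Acot3 was at 0 in a pair of control liver libraries, and its fold change there depends on the prior count.

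Most of these transcripts were called higher in treated than in control liver. With all libraries, 24 of the 32 genes were called higher with cisplatin and none lower (43.1% of all tested genes were called, 25.6% higher and 17.5% lower). With CBLB502 25 were higher (27.8% called, 18.3% higher and 9.48% lower) and with the combination 25 (40.2% called, 23.8% higher and 16.4% lower). Median log2 fold changes of the 32 genes were 1.46, 1.88 and 1.82, against 0.09, 0.14 and 0.14 over all genes. Median-of-ratios scaling shifted the all-gene medians to -0.14, -0.10 and -0.16 and those of the 32 genes to 1.21, 1.625 and 1.505. The cisplatin result changed without library 3. It then had 19 of the 32 genes higher and 2 lower (46.8% of all genes called, 26.1% higher and 20.6% lower), with a median of 0.78 against 0 over all genes. The 2 were Acaa1b (-6.37 ± 0.57, adjusted p = 5.31e-06) and Fabp1 (-3.78 ± 0.4, adjusted p = 1.89e-05), and Cpt2, Slc25a20, Eci1, Ehhadh and Pex11a lost their calls. Fitted on the 2 groups alone, cisplatin against control called 15 of the 32 genes, where that fit called 30.4% of all genes. Of the 14 hepatocyte markers 12, 11 and 14 were called higher in these comparisons, and they summed to 16210 to 30550 CPM in control liver and 55490 to 92450 CPM in treated liver. Markers of other cell types also differed from control: 9 of 12 macrophage markers were called lower with cisplatin and 12 of 12 with the combination, while with CBLB502 1 was called higher. Lymphocyte markers were lower for 9, 3 and 10 of 12 and adipocyte markers for 4, 4 and 3 of 7 tested, in the order cisplatin, CBLB502 and combination. Lymphocyte markers summed to 22.64 to 39.16 CPM in control, 4.985 to 8.341 with CBLB502 and 1.301 CPM or less in the other groups, and adipocyte markers to 199.5 to 729.9 CPM in control and 18.37 to 140.8 in treated liver. With CBLB502 and with the combination Adipoq, Plin1, Lep, Retn, Ucp1 and Cidea were at 0, so the adipocyte sums there came from other genes of the list. In control liver Adipoq ranged from 0 to 27.96 CPM. The part of these cell types in the result was not tested.

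Among carnitine shuttle genes in liver, Cpt1a, which forms acylcarnitines at the outer mitochondrial membrane and sets the pace of the pathway (ENSMUSG00000024900, chromosome 19, 3322334 to 3385733), was at 23.8, 33.3 and 27.3 CPM in control. It was at 151, 157 and 181 CPM with CBLB502, 71.8, 84.2 and 212 after cisplatin and 270.3, 181 and 302 after both. Every treated library lay above every control library, and the combination was 8.94-fold above control (log2 fold change 3.16 ± 0.4, adjusted p = 0.000136). Cpt2, the inner-membrane partner, went from 21.1, 30.2 and 22.7 CPM in control to 60.5, 59.8 and 72 with CBLB502 (1.38 ± 0.38, adjusted p = 0.0191), and cisplatin libraries had 32, 41.5 and 100.2. The carrier Slc25a20, at 23.5, 23.1 and 15.6 CPM in control and 21.4, 31.9 and 89.7 with cisplatin (1.2 ± 0.44, adjusted p = 0.043), was called although cisplatin library 1 lay within the control range, and without library 3 it was not called (0.39 ± 0.25, adjusted p = 0.213). Carnitine acetyltransferase, Crat, was called with the combination alone (1.69 ± 0.51, adjusted p = 0.0212).

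The 4 acyl-CoA dehydrogenases, which take the first step of each turn for chains of different length, were called higher in all 3 treated groups of liver. Acadm (ENSMUSG00000062908, chromosome 3, 153922357 to 153944632) was at 55.2, 52.6 and 45.7 CPM in control, 135, 140 and 131 with CBLB502, 77.5, 82.5 and 182 after cisplatin and 201, 181 and 219 after both. No treated library overlapped control, and the combination libraries had the top mean, 3.91-fold above control (log2 fold change 1.97 ± 0.3, adjusted p = 0.00047). Acadl, for long chains, changed least of the 4 with cisplatin, from 51.1, 38.5 and 24.6 CPM to 56.3, 63.2 and 95 (0.91 ± 0.28, adjusted p = 0.0202). Of the next steps, Hadha, the alpha subunit of the trifunctional protein, rose from 46.3, 41 and 33.7 CPM in control to 145, 153 and 142 with CBLB502 (1.86 ± 0.27, adjusted p = 0.000499). Hadha stood at 84.2, 96.2 and 168 CPM with cisplatin and 143, 118 and 152 with the combination, all above control. Acaa2, the last thiolase of the mitochondrial spiral, was called higher in all 3 treated groups, with 432, 407 and 385 CPM with CBLB502, 365, 453 and 606 after cisplatin and 459, 401 and 448 after both against 90.3, 61.4 and 97.5 in control. Hadh, the short-chain hydroxyacyl dehydrogenase, was called against control in none of the 3 treated groups (adjusted p from 0.0985 to 0.157), and its cisplatin libraries ranged from 17.1 to 207 CPM.

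All 4 auxiliary enzymes for unsaturated fatty acids and all 3 electron transfer genes were called higher in each treated group of liver, except that Eci1 lost its cisplatin call without library 3 (0.37 ± 0.19, adjusted p = 0.141). Eci1, an enoyl-CoA isomerase, was at 24, 19 and 18.9 CPM in control, 22.6, 29.6 and 91.5 with cisplatin and 57.2, 44.9 and 62.6 with the combination (1.41 ± 0.43, adjusted p = 0.021). Its isoenzyme Eci2 was at 37.5, 29.8 and 55.5 CPM in control and 90.5, 101 and 113 with CBLB502 (1.31 ± 0.29, adjusted p = 0.00641). Etfb, a subunit of the flavoprotein that takes electrons from the dehydrogenases, had the smallest called change of the 32 genes with CBLB502 and was 1.88-fold higher, from 69.8, 97.8 and 66.2 CPM to 146, 143 and 151 (0.91 ± 0.24, adjusted p = 0.0137). Etfa, its partner, went from 57.3, 59.5 and 44.7 CPM to 162, 138 and 155 with the combination (1.49 ± 0.31, adjusted p = 0.00284).

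Among peroxisomal genes of liver, Ehhadh, the bifunctional enzyme of peroxisomal oxidation (ENSMUSG00000022853, chromosome 16, 21761287 to 21787807), was at 22.7, 8.44 and 16.5 CPM in control, 112, 160.2 and 152 with CBLB502, 19.6, 28.8 and 126 after cisplatin and 67.7, 48.5 and 83.6 after both. CBLB502 gave the highest mean, 8.89-fold above control (log2 fold change 3.15 ± 0.64, adjusted p = 0.00385), and the first cisplatin library lay within the control range. Its cisplatin call was lost without library 3 (0.64 ± 0.36, adjusted p = 0.166). Acaa1b, a peroxisomal thiolase (ENSMUSG00000010651, chromosome 9, 119148023 to 119157093), was not called against control in any group with all libraries. It was at 132, 241 and 187 CPM in control, 403, 449 and 485 with CBLB502, 2.71, 1.71 and 224 after cisplatin and 63.3, 22.2 and 71.7 after both. Cisplatin libraries 1 and 2 were the lowest of the tissue while library 3 reached the control range, and without library 3 cisplatin was below control (-6.37 ± 0.57, adjusted p = 5.31e-06). Acaa1b shares 30.5% of its 50-base words with Acaa1a, and reads could be split between them. Acot1, a cytosolic thioesterase (ENSMUSG00000072949, chromosome 12, 84009490 to 84018371), was at 0, 0.542 and 2.52 CPM in control, 7.47, 10.2 and 11.8 with CBLB502, 0.797, 0.873 and 17.5 after cisplatin and 9.39, 2.22 and 10.4 after both, and was called in none of these comparisons. Acot4, a peroxisomal thioesterase, was called in all 3, rising with cisplatin from 2.73, 5.88 and 2.21 CPM to 10.6, 20.7 and 82.1 (3.37 ± 0.69, adjusted p = 0.00226). Acot3, also peroxisomal, was at 2.84, 5.4 and 61.6 CPM with cisplatin and 4.75, 1.57 and 8.25 with the combination against 0, 0 and 0.403 in control, and most of its cisplatin mean came from library 3. Pex11a, which takes part in peroxisome division, was called in all 3 treated groups (CBLB502 2.08 ± 0.64, adjusted p = 0.0309; with cisplatin not without library 3), Acaa1a with CBLB502 and the combination, and Acot2 in none. The Acot genes share sequence (from 4.53% to 27.7% of 50-base words in other genes), so each is uncertain.

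Bdh1, which interconverts acetoacetate and beta-hydroxybutyrate (ENSMUSG00000046598, chromosome 16, 31422280 to 31458901), was at 21.6, 18.9 and 20.6 CPM in control liver, 126, 120 and 118 with CBLB502, 32.2, 31.2 and 80.1 after cisplatin and 35.4, 29.7 and 35 after both. CBLB502 libraries were above all others, 5.97-fold over control (log2 fold change 2.58 ± 0.33, adjusted p = 0.000268). Fabp1 (ENSMUSG00000054422, chromosome 6, 71199827 to 71205023) had 275, 502.1 and 227 CPM in control, 1738, 2269 and 2137 with CBLB502, 28.3, 19.6 and 607 after cisplatin and 181, 127 and 225 after both. The CBLB502 libraries were above all others and cisplatin libraries 1 and 2 below all others, yet no comparison between liver groups was called with all libraries, and the adjusted p of CBLB502 against control was 0.0779. Vnn1, a pantetheinase and PPAR alpha target (ENSMUSG00000037440, chromosome 10, 23894688 to 23905343), was at 1.61, 1.55 and 1.61 CPM in control, 14.9, 17.3 and 22 with CBLB502, 1.64, 1.32 and 17.4 after cisplatin and 5.42, 3.36 and 6.04 after both. Cisplatin libraries 1 and 2 were at the control level and library 3 at the CBLB502 level, and Vnn1 was higher with CBLB502 than in control (3.5 ± 0.88, adjusted p = 0.0117). Ppara itself (ENSMUSG00000022383, chromosome 15, 85734983 to 85802819) was at 1.51, 2.86 and 3.22 CPM in control, 16.8, 16.8 and 23.2 with CBLB502, 7.49, 6.34 and 30 after cisplatin and 19.4, 11.5 and 21.6 after both, and was called higher in all 3 treated groups (CBLB502 2.9 ± 0.58, adjusted p = 0.00365).

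Plin2, which coats lipid droplets (ENSMUSG00000028494, chromosome 4, 86648386 to 86670060), followed another order in liver. It was at 33.3, 41.5 and 35.4 CPM in control, 184, 151 and 228 with CBLB502, 397, 319 and 200.2 after cisplatin and 105, 89.1 and 147 after both. Cisplatin gave the highest mean, 8.31-fold above control (log2 fold change 3.05 ± 0.31, adjusted p = 2.44e-05), and cisplatin library 3, high for the other 31 genes, was the lowest of the cisplatin libraries.

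**Figure D2:**
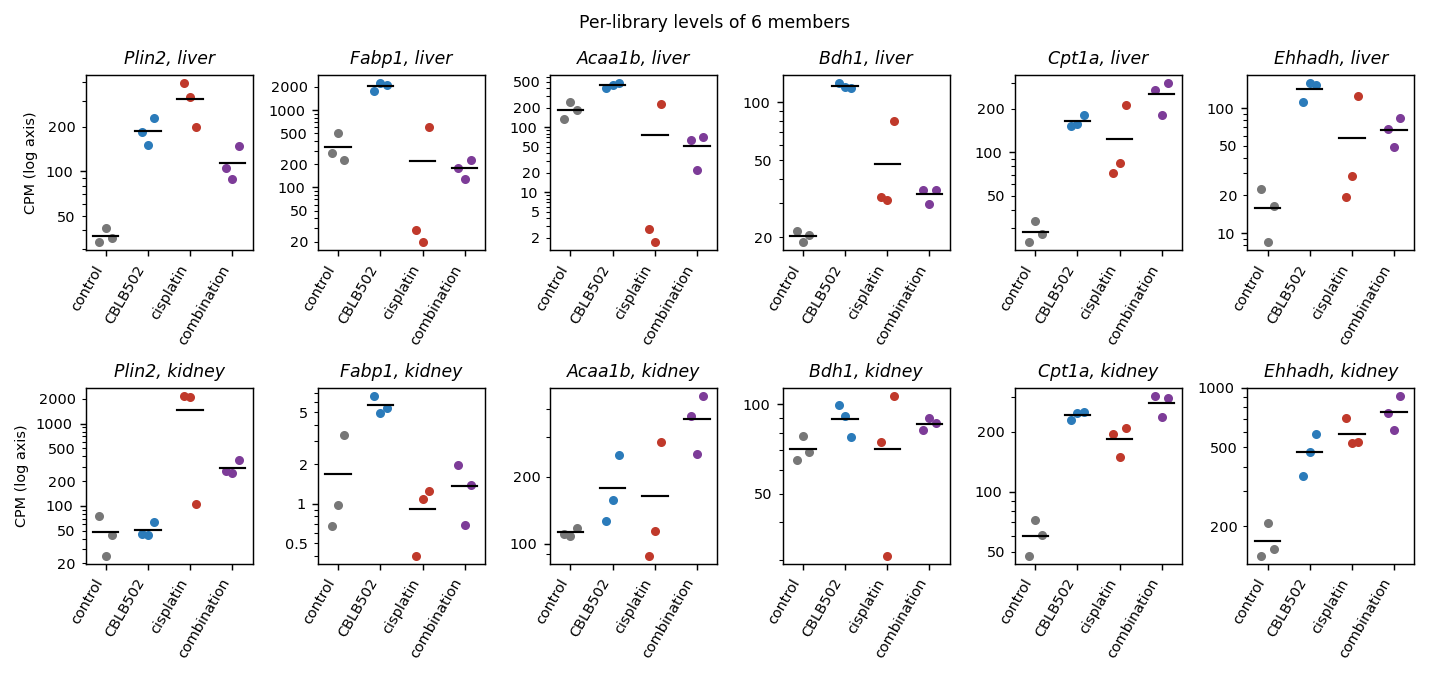
CPM of 6 genes in each library of liver (top) and kidney (bottom), with points for libraries, bars for the mean of 3 libraries and a log axis of its own range in each panel. In liver Plin2 is highest with cisplatin and Fabp1, Acaa1b and Bdh1 are highest with CBLB502; in kidney Plin2 exceeds 2000 CPM in a pair of cisplatin libraries.

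The combination was compared with cisplatin to ask what CBLB502 given first changed in these genes. In liver 1 of the 32 genes was called, Plin2, which fell 2.68-fold (log2 fold change -1.42 ± 0.29, adjusted p = 0.0259), while 3.57% of all genes were called and 2.58% were lower. The call was lost with the cisplatin or combination libraries left out in turn (adjusted p from 0.0776 to 0.131), except without cisplatin library 3, and on the 2 groups alone (adjusted p = 0.0892). Groups of libraries did not overlap for Plin2 (lower) and for Crat (higher), where 12.9% and 15.7% of all genes did not overlap in these directions. The median log2 fold change of the 32 genes was 0.25, with 24 of them positive, against 0.01 over all genes, and 5 of the 32 had an unadjusted p under 0.05, as did 21.1% of all genes.

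This comparison turned on cisplatin library 3. As that library was the highest of the cisplatin libraries for all of these genes but Plin2, leaving it out lowers their cisplatin means by construction and raises that of Plin2. The adjusted p-values below carry this choice. Without it, 23 of the 32 genes were called higher with the combination and 1 lower, where 23.1% of all genes were called, 12.5% higher. Acaa1b then differed most (log2 fold change 4.58 ± 0.52, adjusted p = 0.000163; -0.54 with all libraries), followed by Acot1 (3.15 ± 0.86, adjusted p = 0.0222), Fabp1 (2.9 ± 0.38, adjusted p = 0.000375) and Hadh (2.12 ± 0.24, adjusted p = 0.00018). Cpt1a was called at 1.7 ± 0.24, adjusted p = 0.000582 and Acadm at 1.34 ± 0.16, adjusted p = 0.000222. Plin2 was the only gene called lower (-1.64 ± 0.24, adjusted p = 0.000672). Acads, Acaa2, Hadhb, Eci2, Etfb, Acot2, Acot3 and Bdh1 were not called in either setting. With all libraries 3 of 12 macrophage markers were lower with the combination than with cisplatin, and their sum ranged from 42.43 to 143.7 CPM with cisplatin and from 24.31 to 37.53 CPM with the combination. Neutrophil markers (3 of 6 tested lower) summed to 1.895 to 41.55 and 0.07175 to 0.4488 CPM, and hepatocyte markers to between 70310 and 92450 and between 70150 and 89190 CPM; the part of these cell types in the result was not tested.

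**Figure D3:**
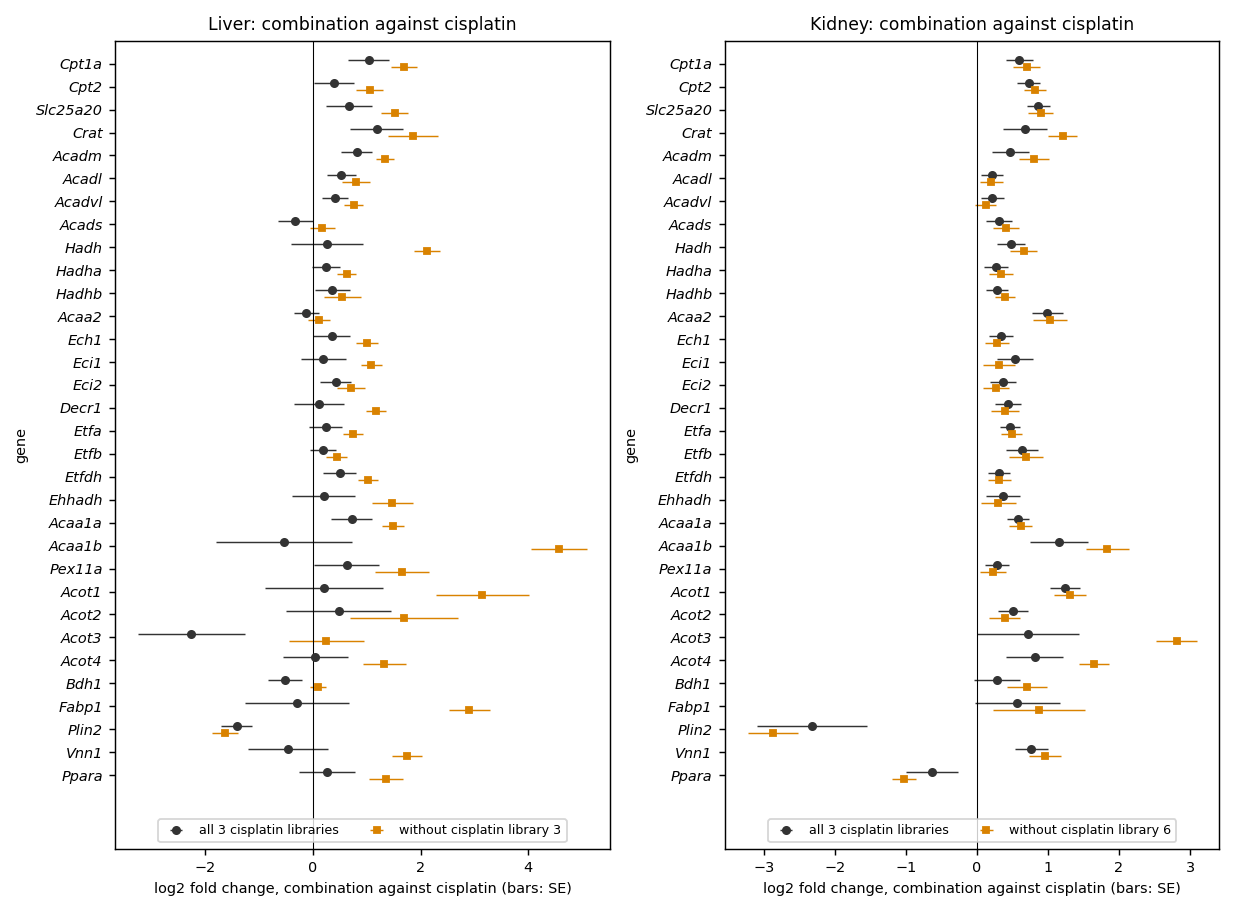
Log2 fold change of the combination against cisplatin for each of the 32 genes in liver (left) and kidney (right), with bars for SE, from all libraries (circles) and without liver cisplatin library 3 or kidney cisplatin library 6 (squares). In liver the squares lie right of the circles for every gene but Plin2; in kidney Plin2 and Ppara lie left of 0 and the other genes right of it in both settings.

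Against CBLB502 alone, cisplatin liver had 1 of the 32 genes called, Bdh1, which was 2.54-fold lower (log2 fold change -1.34 ± 0.32, adjusted p = 0.0193; 12.5% of all genes called, 7.7% higher and 4.84% lower). Leaving out any 1 library other than cisplatin library 3 ended this call (adjusted p from 0.0636 to 0.0806). Bdh1, Fabp1, Acaa1b and Hadhb were lower in all cisplatin libraries than in all CBLB502 libraries, as were 21.6% of all genes. Without library 3, cisplatin was lower for 18 genes and higher for Plin2 (29.6% of all genes called, 15.5% lower), with Acaa1b at -7.66 ± 0.6, adjusted p = 9.82e-06, Fabp1 at -6.43 ± 0.46, adjusted p = 5.72e-06, Vnn1 at -3.62 ± 0.31, adjusted p = 1.57e-05 and Ehhadh at -2.55 ± 0.39, adjusted p = 0.000637. The combination against CBLB502 also had Bdh1 as its 1 called gene, 3.64-fold lower (log2 fold change -1.86 ± 0.32, adjusted p = 0.00634; 6.74% called, 3.86% lower), and this call held with each library left out. On the 2 groups alone 11 of the 32 genes were called, 5 higher and 6 lower, where that fit called 31.4% of all genes. Macrophage markers were called lower for 8 of 12 with cisplatin and 11 of 12 with the combination against CBLB502 (242.9 to 431 CPM in sum with CBLB502), lymphocyte markers for 8 and 9 of 12, and 2 of 6 neutrophil markers were higher with cisplatin. Their part was not tested. Both comparisons share the CBLB502 libraries. In all libraries the combination exceeded CBLB502 for 7 genes, among them Cpt1a, Acadm, Acadvl and Crat, and was lower for 6: Acaa1b, Bdh1, Ehhadh, Fabp1, Plin2 and Vnn1 (25.1% and 22.2% of all genes).

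The interaction in liver (combination minus CBLB502 minus cisplatin plus control) asks whether the combination equals the sum of both single treatments on the log scale. It was negative and called for 13 of the 32 genes and positive for none, where 21.7% of all genes were called, 14.5% negative and 7.14% positive. The interaction of Plin2 was -3.77 ± 0.42, adjusted p = 0.000237, that of Bdh1 -3.1 ± 0.45, adjusted p = 0.00101, that of Vnn1 -3.97 ± 1.15, adjusted p = 0.0289 and that of Acaa2 -2.42 ± 0.34, adjusted p = 0.000889. The interaction rests on the control libraries, so that treatment and the different library make-up of control cannot be told apart in it either. The count was 8 without control library 2 or CBLB502 library 3 and 7 without CBLB502 library 2 or combination library 1 or 2. Without cisplatin library 3 the interaction was called for 14 genes negative and 1, Acaa1b, positive (30.4% of all genes called, 18.5% negative and 11.9% positive). The median then went from -1.51 to -0.71, against -0.23 and -0.10 over all genes.

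In kidney most of these genes were higher with the combination than in control: 26 of the 32 were called higher and none lower (36.5% of all genes called, 21.5% higher and 15% lower). With all libraries, 21 were called higher with cisplatin (39.3% called, 24.1% higher and 15.2% lower) and 13 with CBLB502 (19.2% called, 11.4% higher and 7.77% lower), again none lower. Median log2 fold changes were 1.64, 0.98 and 0.57, against 0.07, 0.06 and 0.05 over all genes. Without cisplatin library 6, cisplatin was higher for 21 genes and lower for 3 (51.7% of all genes called, 27.4% higher and 24.3% lower): Crat (-0.86 ± 0.2, adjusted p = 0.00339), Acot3 (-1.09 ± 0.27, adjusted p = 0.00553) and Acot4 (-0.67 ± 0.21, adjusted p = 0.019). The CBLB502 count fell to 5 without CBLB502 library 6 and to 8 without control library 3. The 14 proximal tubule markers summed to 9181 to 15510 CPM in control, 17630 to 24400 with CBLB502, 6362 to 18580 after cisplatin and 14520 to 17160 after both, and adipocyte markers to 107.6 to 4201 CPM in control and 93.28 to 406.4 CPM in treated kidney. Hepatocyte markers summed to 1502 to 1697 CPM in control and 2418 to 4795 in treated kidney. They were called higher for 11, 7 and 10 of 14 with cisplatin, CBLB502 and the combination. Their list shares Hnf4a with the proximal tubule list (149.6 to 480.2 CPM in kidney), while Alb reached at most 140.7 CPM and Apoa1 31.83 CPM. Lymphocyte markers were called lower for 7, 0 and 7 of 11 tested (7.421 to 33.66 CPM in sum in control, 6.175 or less in treated kidney). Proximal tubule markers were higher for 3, 5 and 4 of 14 and adipocyte markers lower for 4, 1 and 4 of 13. Their part was not tested.

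Cpt1a in kidney was at 47.7, 72.3 and 60.4 CPM in control, 230.1, 249 and 252 with CBLB502, 194, 149.7 and 209.6 after cisplatin and 304, 239 and 295 after both. All treated libraries were above control, and CBLB502 alone raised it 4.05-fold (log2 fold change 2.02 ± 0.19, adjusted p = 7.76e-05). Among the dehydrogenases, Acadm was not called against control in any group, with 352, 439.9 and 370 CPM in control, 429, 499 and 513 with CBLB502, 441, 255 and 618 after cisplatin and 638, 572 and 608 after both. Cisplatin library 5 was its lowest value of the tissue. Acads, for short chains, was called in all 3, at 267, 252 and 230.5 CPM with the combination against 59.7, 58.3 and 73.1 in control (1.97 ± 0.19, adjusted p = 1.68e-05). Acadl was called with the combination alone, from 192, 184 and 204 CPM to 295, 260.3 and 296 (0.55 ± 0.16, adjusted p = 0.0161).

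Hadha in kidney was at 114, 76.2 and 83.3 CPM in control, 110.2, 119 and 117 with CBLB502, 159.8, 131 and 165 after cisplatin and 174, 176 and 199 after both. Cisplatin and the combination raised it (0.73 ± 0.17, adjusted p = 0.00557 and 1.0 ± 0.17, adjusted p = 0.000899), and CBLB502 did not pass the test (0.34 ± 0.17, adjusted p = 0.193). Its partner Hadhb was called in all 3, at 102, 102 and 118 CPM with CBLB502 against 75.5, 73.9 and 62.7 in control (0.6 ± 0.16, adjusted p = 0.0192). The smallest called changes were in electron transfer genes. Etfdh, which hands electrons to ubiquinone, went from 79.5, 68.1 and 69.3 CPM to 112, 83.4 and 98.2 with cisplatin (0.44 ± 0.16, adjusted p = 0.0436), and Etfa from 136, 155 and 137 CPM to 179, 191 and 225 with CBLB502 (0.48 ± 0.15, adjusted p = 0.0409). The auxiliary enzymes Ech1, Eci1, Eci2 and Decr1 were called with cisplatin and with the combination and not with CBLB502. Eci1 had 55.1, 34.8 and 44.4 CPM in control, 36.1, 40.1 and 50.2 with CBLB502, 169, 256 and 121 after cisplatin and 237, 276 and 278 after both, so that CBLB502 libraries lay with control and the other treated libraries well above both.

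Ehhadh in kidney was called higher in every treated group, at 142, 207 and 153 CPM in control, 358, 475 and 586 with CBLB502, 707, 525 and 531 after cisplatin and 750, 613 and 913 after both. Its combination mean was 4.53-fold above control (log2 fold change 2.18 ± 0.25, adjusted p = 5.6e-05). Acot1 had the largest fitted change of the 32 genes with the combination: 14.6, 24.5 and 24.4 CPM in control, 44.4, 41.4 and 54 with CBLB502, 96.1, 91.9 and 107 after cisplatin and 214, 204 and 279.8 after both. These groups do not overlap in any pair, and the combination was 11-fold above control (log2 fold change 3.45 ± 0.23, adjusted p = 3.9e-06). Acot2, the mitochondrial thioesterase, was called with the combination alone (0.76 ± 0.22, adjusted p = 0.016). With all libraries Bdh1 was not called in any kidney comparison, with 64.9, 78.4 and 68.9 CPM in control, 99.5, 90.9 and 77.6 with CBLB502, 74.6, 30.9 and 107 after cisplatin and 82.2, 89.7 and 86.1 after both.

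The groups did not overlap for Vnn1 in kidney, with 14.5, 22.8 and 20.3 CPM in control, 44.8, 53.6 and 75.1 with CBLB502, 94.5, 98.9 and 139 after cisplatin and 175, 184 and 206 after both. The combination was 9.81-fold above control (log2 fold change 3.29 ± 0.25, adjusted p = 6e-06). Fabp1 was at 6.69 CPM or less in every kidney library, with 0.677, 0.984 and 3.38 CPM in control, 6.69, 4.97 and 5.45 with CBLB502, 0.401, 1.08 and 1.26 after cisplatin and 1.98, 0.692 and 1.4 after both. Ppara was at 4.57, 3.16 and 3.33 CPM in control, 11, 10.8 and 9.34 with CBLB502, 36.3, 40.1 and 10.7 after cisplatin and 19.6, 16.8 and 19.7 after both. It was called higher in all 3 treated groups, and cisplatin library 6 lay apart from the other cisplatin libraries, at the CBLB502 level (2.99 ± 0.41, adjusted p = 0.000228 for cisplatin).

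Plin2 in kidney was at 74.4, 24.9 and 44.5 CPM in control, 45.9, 44 and 64.3 with CBLB502, 2185, 2134 and 106 after cisplatin and 267, 253 and 360.5 after both. Cisplatin libraries 4 and 5 exceeded all others, library 6 lay below the combination libraries, and CBLB502 lay with control. Cisplatin against control gave 4.95 ± 0.87, adjusted p = 0.0011, and without library 6 5.5 ± 0.39, adjusted p = 7.44e-07.

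Kidney combination against cisplatin had no gene of the 32 called by edgeR and 0.00492% of all genes called, with 15 of the 32 and 12.9% of all genes at an unadjusted p under 0.05. DESeq2 called 7 of the 32 and 3.06% of all genes, the 7 all higher with the combination: Cpt1a, Cpt2, Slc25a20, Acaa2, Etfa, Acaa1a and Acot1. The median log2 fold change was 0.47, with 30 of 32 positive, against 0 over all genes. For 16 of the 32 genes every combination library exceeded every cisplatin library, as for 8.02% of all genes, and the reverse held for none (5.75% of all genes). Acot1 was 2.36-fold higher (log2 fold change 1.24 ± 0.21, adjusted p = 0.223) and Acaa2 1.99-fold (0.99 ± 0.22, adjusted p = 0.229). Without cisplatin library 6, edgeR called 14 genes higher and 2 lower (22.3% of all genes called, 12% higher and 10.3% lower): the 2 were Plin2 (-2.88 ± 0.35, adjusted p = 0.000193) and Ppara (-1.03 ± 0.16, adjusted p = 0.00102). Acot3, at 3.58, 4.55 and 43.8 CPM with cisplatin and 26.8, 20.3 and 38.5 with the combination, then differed most among the genes called higher (2.81 ± 0.29, adjusted p = 5.62e-05), with Acaa1b next (1.84 ± 0.3, adjusted p = 0.00134).

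Against CBLB502, cisplatin kidney had 15 of the genes higher and 1, Fabp1, lower (28.7% of all genes called, 18.5% higher). The count was 10 without CBLB502 library 4 or 5 and 9 on the 2 groups alone, where that fit called 17.1% of all genes. Without cisplatin library 6 it was 15 higher and 7 lower, namely Cpt1a, Crat, Acaa1b, Acot3, Acot4, Bdh1 and Fabp1 (46.9% of all genes called, 23.7% higher and 23.2% lower). With all libraries 3 of 14 proximal tubule and 4 of 12 distal and collecting tubule markers were lower with cisplatin than with CBLB502, the latter summing to 3002 to 4390 CPM with CBLB502 and 1123 to 2791 with cisplatin. With the combination distal and collecting tubule markers summed to 1495 to 2510 CPM. Proximal tubule markers summed to 14520 to 17160 CPM with the combination and 17630 to 24400 with CBLB502. Hepatocyte markers went the other way, with 4325 to 4795 and 2418 to 3410 CPM. Their part was not tested. All 4 auxiliary enzymes were among the 15, with Eci1 4.31-fold higher (log2 fold change 2.11 ± 0.27, adjusted p = 0.000519) and Ech1 3.25-fold (1.7 ± 0.17, adjusted p = 0.00036). Plin2 differed most (4.84 ± 0.87, adjusted p = 0.00215), and Ppara was higher (1.48 ± 0.37, adjusted p = 0.0128). The combination against CBLB502 had 21 higher and 1, Fabp1, lower (-2.07 ± 0.62, adjusted p = 0.03; 23.8% called, 14.9% higher and 8.98% lower), led by Eci1 (2.64 ± 0.27, adjusted p = 0.000168), Plin2 (2.51 ± 0.78, adjusted p = 0.0364), Acot1 (2.32 ± 0.22, adjusted p = 0.000134) and Ech1 (2.04 ± 0.18, adjusted p = 9.73e-05). The Plin2 call was lost with any 1 of these 6 libraries left out (adjusted p from 0.0681 to 0.122). It was kept when edgeR was fitted on the 2 groups alone (adjusted p = 4.39e-05). Both comparisons share the CBLB502 libraries.

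The kidney interaction was called for 2 of the genes, both negative, with 8.01% of all genes called, 5.41% negative and 2.6% positive: Cpt1a (-1.42 ± 0.27, adjusted p = 0.00997) and Ppara (-2.15 ± 0.54, adjusted p = 0.0329). Without cisplatin library 6 it was called for 4 genes in each direction (25.2% of all genes called, 14.2% negative and 11% positive). Ppara lost its call without most other single libraries, with adjusted p from 0.0559 to 0.0858. Here too, treatment and the different library make-up of control cannot be told apart.

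The tissues were compared in the change from CBLB502 to cisplatin. This change was larger in kidney than in liver for 2 of the 32 genes and smaller for none (2.08% of all genes called, 1.25% larger and 0.834% smaller). For Plin2 the difference was 4.01 ± 0.87, adjusted p = 0.0207, and for Eci1 it was 2.32 ± 0.52, adjusted p = 0.0234, both from the fit of all 24 libraries. The separate fits of each tissue gave log2 fold changes of 0.7 in liver and 4.84 in kidney for Plin2 and of -0.34 and 2.11 for Eci1. These need not subtract to the same difference. Without liver cisplatin library 3 the count was 20, all larger in kidney (8.8% of all genes called, 5.81% larger); without kidney CBLB502 library 4 or 5 or cisplatin library 5 it was 0, and without kidney cisplatin library 6 it was 3 larger and 1 smaller (6.95% of all genes called, 3.73% larger and 3.22% smaller). In the change from cisplatin to the combination none of the 32 differed between tissues by edgeR (0.964% of all genes called, 0.668% larger in kidney), 2 of the 32 and 13.7% of all genes had an unadjusted p under 0.05, and DESeq2 called 1 of the 32 and 5.61% of all genes. Without liver cisplatin library 3, 4 genes were called, all with a smaller change in kidney (7.16% called, 4.02% smaller), and without kidney cisplatin library 6 there was 1, with a larger one (3.25% called, 1.69% larger).

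**Figure D4:**
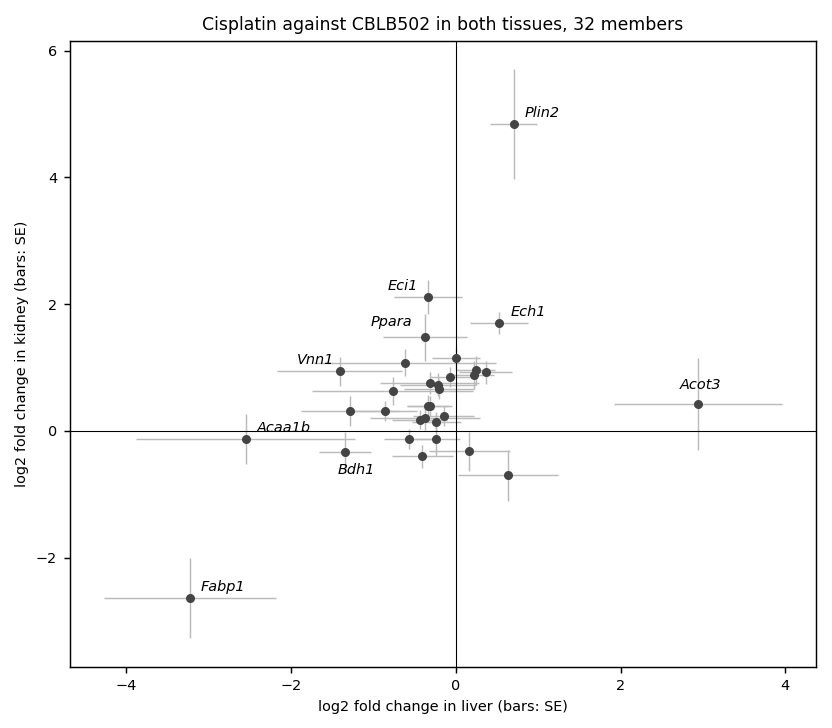
Log2 fold change of cisplatin against CBLB502 in liver (x axis) and kidney (y axis) for the 32 genes, with bars for SE. Plin2 lies at 0.70 in liver and 4.84 in kidney and Eci1 at -0.34 and 2.11; Fabp1 lies at -3.23 and -2.64 and was called in kidney alone, where no difference between the tissues passed the test.

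A further 67 genes of the pathway, from uptake and activation of fatty acids to ketone body use and regulators, were measured beside the 32. In liver 65 could be tested, of which cisplatin raised 30 and lowered 6 against control (25.6% and 17.5% of all genes), CBLB502 raised 29 and lowered 2 (18.3% and 9.48%), and the combination raised 38 and lowered 4 (23.8% and 16.4%). Lpin1, a phosphatidate phosphatase and coactivator of PPAR alpha, averaged 12.9 CPM in control, 73.2 with CBLB502, 156.4 after cisplatin and 516.9 after both (combination against CBLB502 2.82 ± 0.55, adjusted p = 0.0116). Ppargc1a, a coactivator that drives mitochondrial genes, was higher with cisplatin than with CBLB502 (17.2 against 3.08 CPM; 2.48 ± 0.51, adjusted p = 0.0107), and Acacb, which makes the malonyl-CoA that inhibits Cpt1, was lower (8.94 against 36.7 CPM; -2.04 ± 0.45, adjusted p = 0.0144). Besides these, only Ucp2 was called there among pathway genes of at least 1 CPM. Ucp2 was lower with cisplatin (5.52 against 14.8 CPM, -1.43 ± 0.27, adjusted p = 0.00711), and 12.5% of all genes were called. The combination against cisplatin called none of the 65 by edgeR, with 18 of them at an unadjusted p under 0.05 beside 21.1% of all genes.

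Kidney had 35 of the 67 raised by cisplatin and 4 lowered against control (24.1% and 15.2% of all genes), 18 and 3 by CBLB502 (11.4% and 7.77%), and 38 and 5 by the combination (21.5% and 15%). Against CBLB502, cisplatin raised 23 and lowered 5 (18.5% and 10.2%). Pdk4, a kinase that holds back glucose oxidation, averaged 12.2 CPM with CBLB502, 458.5 after cisplatin and 126.8 after both (cisplatin against CBLB502 5.24 ± 0.85, adjusted p = 0.00128). Angptl4, an inhibitor of lipoprotein lipase, was at 19.9, 381.9 and 209.2 CPM (4.26 ± 0.68, adjusted p = 0.00121). Both are, like Plin2, known to respond to fatty acids through PPARs. None of the 67 was called between the combination and cisplatin by edgeR, with 13 of them at an unadjusted p under 0.05 beside 12.9% of all genes.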

How the data were processed

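Total RNA of 24 libraries was sequenced. The deposited counts are whole-number reads per gene made by the authors, with no normalization, per the file headers and values. The deposited FPKM values of 15 libraries, also made by the authors per the file headers, were used for levels per length, and 9 further FPKM columns could not be tied to a sample and were not used. FPKM of treated kidney was computed from counts, the library total and a gene length. The length was the median that deposited FPKM of treated liver implied, from libraries with 50 or more counts of the gene. Where treated liver gave none, all 15 libraries were used. Per the submitters' processing notes, cutadapt 1.9 and FastQC were used. The aligner, counter, strand setting and build are not given in the sources used here. Coordinates are the table's own, and 30 of the 32 genes had the same ones in an annotation of GRCm38.

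Counts were tested with edgeR 4.0.16 (R 4.3.3; TMM scaling, filterByExpr, quasi-likelihood test) with the 12 libraries of a tissue in 1 fit (17931 genes in liver, 20341 in kidney), and with all 24 libraries (21570 genes) between tissues. P-values were adjusted by Benjamini-Hochberg over all genes of a fit, with a threshold of 0.05. Alternatives were DESeq2 1.42.0, median-of-ratios scaling, no filter, omission of mitochondrial genes and their nuclear copies, only the groups compared, a replicate block and each library left out. An exact permutation test of 3 against 3 libraries cannot go below p = 0.1. Kidney treated libraries were tied to their group by column name.

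The 32 genes and all lists were chosen with earlier results of these data known. All 32 genes passed the filter in both tissues. Shown in full in both tissues are Cpt1a, Acadm, Hadha, Ehhadh, Acot1, Plin2, Vnn1, Fabp1, Bdh1 and Ppara, and by comparison up to 4 called genes with the highest and 4 with the lowest log2 fold change and at least 1 CPM. Of the other pathway genes, up to 4 called with the largest change could be named. Genes named beyond this were chosen after their values were seen.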

Additional observations from a re-analysis of the deposited data

Results flagged for a closer look

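The change from CBLB502 to cisplatin differed between the tissues for Plin2, the lipid droplet coat protein, by a test of the difference itself (kidney minus liver 4.01 on the log2 scale). It differed likewise for Eci1, the enoyl-CoA isomerase (2.32). Plin2 lost this call without kidney CBLB502 library 4 or 5 or kidney cisplatin library 4 or 5, and Eci1 without liver CBLB502 library 2 or 3, liver cisplatin library 2, kidney CBLB502 library 4 or 5 or kidney cisplatin library 5.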

How the results depend on the processing

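Counts of called genes among the 32 moved by over 1.5 times in these cases. DESeq2 called 2 for cisplatin against CBLB502 in liver, 7 for the combination against cisplatin and 5 for the interaction in kidney, and 4 and 1 for the tissue differences of cisplatin against CBLB502 and of the combination against cisplatin. On the 2 groups alone, liver cisplatin against control gave 15, combination against cisplatin 0, cisplatin against CBLB502 0 and combination against CBLB502 11, and kidney cisplatin against CBLB502 gave 9. With a replicate block the liver combination against cisplatin gave 0, since Plin2 lost its call (adjusted p = 0.0518). The block rests on a number only: same-numbered liver libraries deviated together with r from -0.169 to 0.172, 6 of 18 pairs were over 0.1, and 6 of 12 libraries correlated best with their own number. In kidney no paired analysis was possible because the treated columns carry numbers that the labels do not.

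With 1 library left out, counts ranged in liver from 18 to 27 for cisplatin, 21 to 23 for CBLB502 and 21 to 25 for the combination against control, 0 to 24 for the combination against cisplatin, 0 to 19 for cisplatin against CBLB502, 1 to 1 for the combination against CBLB502 and 7 to 18 for the interaction. In kidney they ranged from 20 to 24, 5 to 12 and 23 to 26 against control, 0 to 16 for the combination against cisplatin, 10 to 22 for cisplatin against CBLB502, 15 to 20 for the combination against CBLB502 and 1 to 8 for the interaction. Between tissues they ranged from 13 to 16 in control, 0 to 20 for the difference of cisplatin against CBLB502 and 0 to 4 for that of the combination against cisplatin.

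Values that turned sign and were called in 1 of the settings ranged as follows with 1 library left out, and the value that turned was in each case the one without liver cisplatin library 3 (liver and tissue differences) or kidney cisplatin library 6 (kidney). For the combination against cisplatin in liver, Acaa1b ranged from -1.12 to 4.58, Fabp1 from -0.85 to 2.90 and Vnn1 from -0.95 to 1.75. The Acaa1b interaction in liver ranged from -2.41 to 3.29. For the tissue difference of the combination against cisplatin, Hadh ranged from -1.58 to 0.77 and Acaa1b from -3.385 to 2.46. In kidney, Acot3 ranged from -1.09 to 1.49 and Acot4 from -0.67 to 0.45 for cisplatin against control, and Acot3 from -1.66 to 0.91 for cisplatin against CBLB502. The cause of these changes was not tested. Control libraries, with few counts outside mitochondrial genes, limit the precision of low genes such as Acot1 to Acot4.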
